A study of Mus musculus with 8 samples.

Results

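The genes described here are 36 mouse genes of 2 stress responses, measured in embryonic stem cells. They were taken by name, and each is represented by the probe set of highest mean signal among those that the platform annotation ties to its symbol alone. They are 36 of 18193 genes with such a probe set. All 36 passed the filter on low signal, a log2 intensity of at least 4 on at least 2 arrays, as did 17832 of the 18193 genes. The ATF4 branch holds 22 of them and the endoplasmic reticulum (ER) chaperone branch holds 14.

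Expression was measured on 8 single-colour Affymetrix arrays, with 2 arrays in each of 4 groups. The groups were cells labelled Rex-1 knockout (KO) without leukemia inhibitory factor (LIF), KO-labelled cells with LIF, J1 wild-type cells without LIF and J1 wild-type cells with LIF. LIF is the cytokine that keeps mouse embryonic stem cells from differentiating in serum medium. All 8 arrays carry J1, a mouse embryonic stem cell line, as source or strain, and the labels place all cells on gelatin in serum medium with added glutamine, nonessential amino acids and β-mercaptoethanol. A period of 12 hours without LIF stands in the extraction text of every array, the ones with LIF included, and for the KO cells without LIF the growth text speaks of LIF being added. Titles and treatment text were followed for the groups. No label says whether the KO cells are 1 clone. Per the series text, a group's pair of arrays are biological replicates. One array of each pair has the letter r in its title, with nothing to say what it marks. That array is called the second array here and the other the first. A p-value sets a group difference only against the spread between the 2 arrays of a group. That spread was pooled over the 4 groups and moderated over all probe sets.

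Cells that lack amino acids, heme or folding capacity in the ER phosphorylate the translation factor eIF2α, which slows protein synthesis while favouring translation of ATF4. ATF4 is a transcription factor that induces amino acid synthesis, amino acid uptake and regulators of cell survival. In the ER, the sensors IRE1 and ATF6 detect unfolded proteins and, through XBP1 and cleaved ATF6, induce chaperones and enzymes that form disulfide bonds. PERK, also an ER sensor, is one of the eIF2α kinases and links both branches. Embryonic stem cells divide rapidly and have a high demand for amino acids.

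Both branches are known for short promoter elements, and the promoters below are those of 5 members to which the results return. The windows run from 250 bases before to 50 bases after the RefSeq start site in assembly GRCm38.p6. The C/EBP-ATF response element, which ATF4 binds with a C/EBP partner, was searched as TGATGNAA, and the ER stress response element, bound by ATF6 with NF-Y, as CCAAT, any 9 bases and CCACG, both on either strand. Sequences run 5′ to 3′ along the gene's strand, with each match in capitals.
Asns promoter, chr6:7693160-7693459, minus strand: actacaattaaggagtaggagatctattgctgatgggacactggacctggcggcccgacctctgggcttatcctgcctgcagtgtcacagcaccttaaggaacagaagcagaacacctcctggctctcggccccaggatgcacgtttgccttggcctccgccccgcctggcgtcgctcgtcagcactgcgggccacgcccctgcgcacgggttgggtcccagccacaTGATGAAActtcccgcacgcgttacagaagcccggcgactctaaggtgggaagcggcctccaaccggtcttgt
Chac1 promoter, chr2:119350992-119351291, plus strand: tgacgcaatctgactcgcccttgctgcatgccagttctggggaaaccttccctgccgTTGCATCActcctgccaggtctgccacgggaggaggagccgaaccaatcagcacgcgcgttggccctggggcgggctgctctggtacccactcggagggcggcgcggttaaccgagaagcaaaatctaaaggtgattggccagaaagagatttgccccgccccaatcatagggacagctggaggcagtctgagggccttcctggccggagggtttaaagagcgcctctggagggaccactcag
Trib3 promoter, chr2:152344011-152344310, minus strand: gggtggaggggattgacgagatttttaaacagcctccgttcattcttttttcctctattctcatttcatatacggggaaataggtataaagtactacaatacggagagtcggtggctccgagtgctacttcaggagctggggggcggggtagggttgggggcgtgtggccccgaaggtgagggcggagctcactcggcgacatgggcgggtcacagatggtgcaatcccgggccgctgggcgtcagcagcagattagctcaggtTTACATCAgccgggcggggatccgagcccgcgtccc
Hspa5 promoter, chr2:34771840-34772139, plus strand: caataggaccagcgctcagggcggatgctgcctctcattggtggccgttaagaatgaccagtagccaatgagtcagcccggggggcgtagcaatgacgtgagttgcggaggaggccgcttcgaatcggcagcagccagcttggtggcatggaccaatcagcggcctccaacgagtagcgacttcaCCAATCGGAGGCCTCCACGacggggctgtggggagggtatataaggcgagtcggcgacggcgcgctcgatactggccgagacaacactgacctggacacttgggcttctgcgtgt
Pdia6 promoter, chr12:17266339-17266638, plus strand: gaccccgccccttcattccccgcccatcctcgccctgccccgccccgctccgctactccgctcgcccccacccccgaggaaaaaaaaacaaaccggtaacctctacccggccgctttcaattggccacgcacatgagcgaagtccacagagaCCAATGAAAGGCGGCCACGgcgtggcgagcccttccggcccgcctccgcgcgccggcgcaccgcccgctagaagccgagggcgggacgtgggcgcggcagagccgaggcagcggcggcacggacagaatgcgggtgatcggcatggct

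The ATF4 letters were found in 7 of the 20 ATF4-branch genes with a RefSeq window (35.0%), namely Asns, Atf3, Chac1, Nupr1, Slc7a11, Trib3 and Vldlr. They were found in 1 of 12 ER genes (8.33%), Herpud1, and in 4.51% of all 27025 genes with a window. The ER stress letters were found in 6 of 12 ER genes (50%), namely Calr, Creld2, Dnajc3, Hsp90b1, Hspa5 and Pdia6. None of the 20 ATF4-branch genes held them, against 0.137% of all genes. No promoter window was at hand for Slc7a5, Slc7a3, Manf and Hyou1. These matches describe letters in a window and show nothing about binding in these cells.

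Signal was deposited as linear intensity with no background or detection value, and the number of arrays limits the precision. Median intensity ran from 114.2 to 143.5 over the 8 arrays. The highest, 143.5, belonged to the second KO array with LIF, which also had 91.2% of probe sets at or above the filter level, against 85.2% to 87.4% on the other 7. The probe set of Zfp42, the gene for Rex-1, read log2 14.07 and 14.03 in KO-labelled cells without LIF and 14.14 and 14.08 with LIF, against 14.15 and 14.33 in J1 cells without LIF and 14.17 and 14.51 with LIF. Its difference was -0.21 (SE 0.16, limma adjusted p = 0.985). Where this probe set lies relative to the deletion is not stated by any source here, so it does not check the label. All 9 measured stem cell markers had a mean log2 of at least 8, and their mean ran from 12.5 to 12.9 over the arrays.

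Amino acid and ER stress genes could not be told apart between KO-labelled and J1 cells with these arrays. None of the 36 members passed an adjusted p under 0.05, and neither did any of the 43439 probe sets tested (0%). In the ATF4 branch 15 of 22 members were nominally lower in KO-labelled cells, with a median difference of -0.08 on the log2 scale and single genes between -0.54 and 0.28. Without the second KO array with LIF that median was 0.04. In the ER branch 8 of 14 were nominally higher, with a median of 0.01 and single genes between -0.25 and 0.48. Over all 17832 genes kept the median was 0.01, with 9244 nominally higher and 8588 lower. The comparison asks whether loss of Rex-1, a zinc finger protein used as a marker of undifferentiated cells, shifts expression. It is averaged over the 2 LIF conditions.

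**Figure D1:**
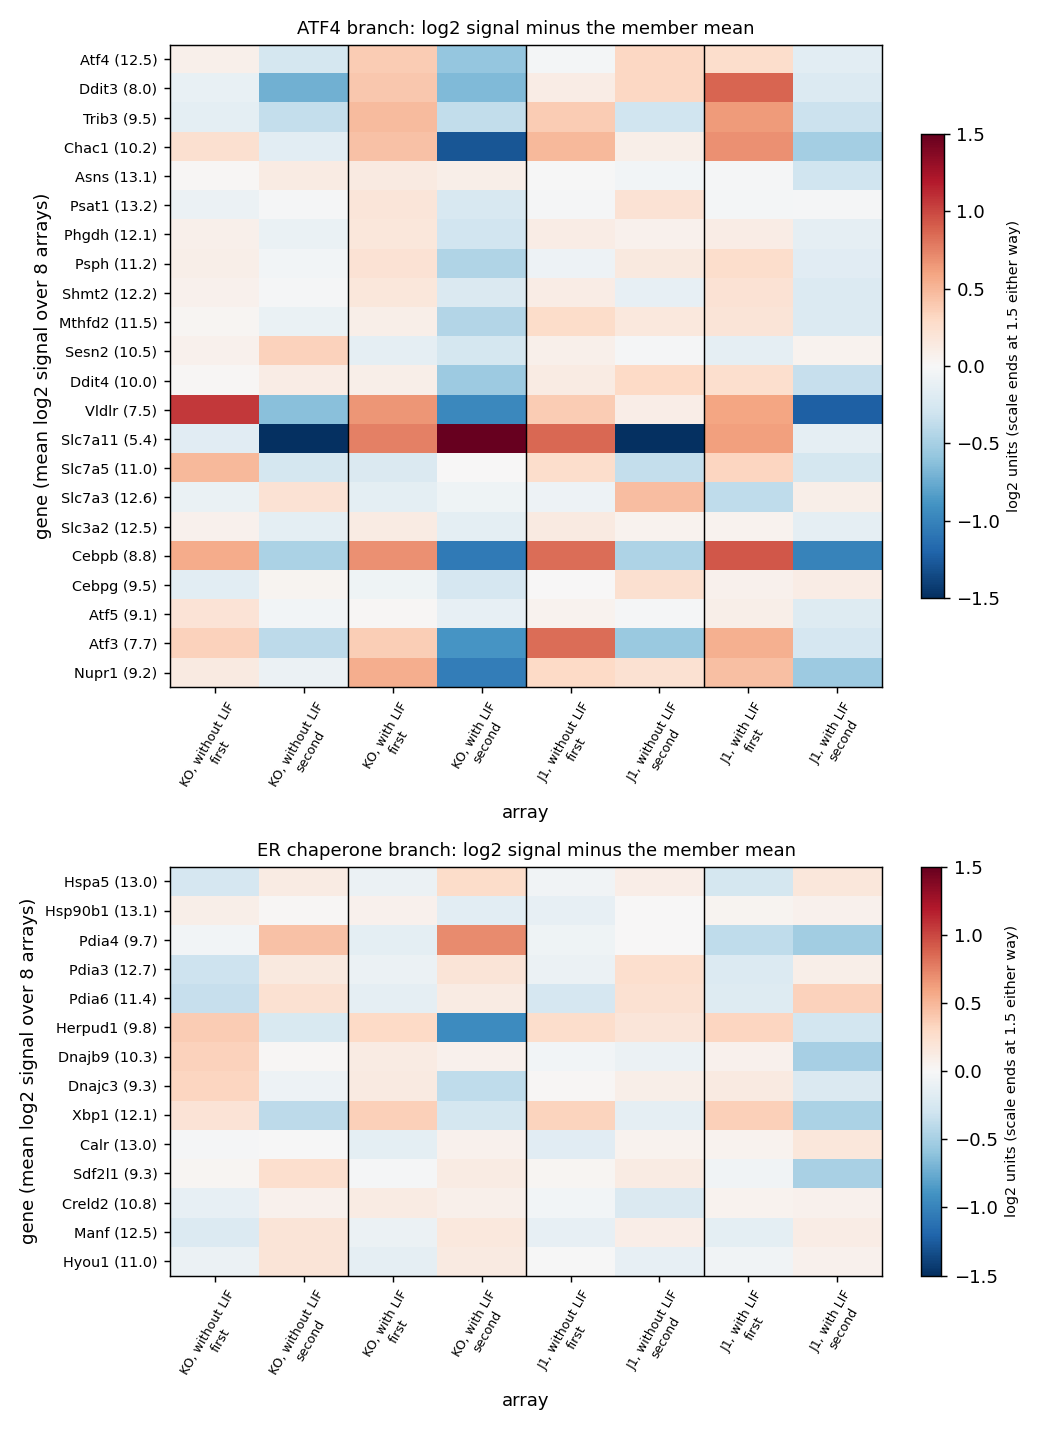
Deviation of each member's log2 intensity from its own mean over the 8 arrays, with genes as rows grouped by branch and arrays as columns (KO, labelled knockout, left of J1, and within each line the arrays without LIF left of those with LIF), and a colour scale that ends at 1.5 log2 units, which some Slc7a11 readings pass. Colours change between first and second arrays within a group, most of all for Cebpb, Atf3, Vldlr and Slc7a11.

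Among the regulators of the ATF4 branch, Atf4 itself had log2 intensities of 12.60 and 12.26 in KO-labelled cells without LIF and 12.91 and 11.95 with LIF, against 12.50 and 12.83 in J1 cells without LIF and 12.79 and 12.37 with LIF. The KO arrays spanned both the highest and the lowest reading, so the lines overlapped. The difference was -0.19 (SE 0.28, limma adjusted p = 0.994), and it was 0.05 without the second KO array with LIF. Ddit3 encodes CHOP, a transcription factor of prolonged stress. It read 7.89 and 7.28 in KO-labelled cells without LIF and 8.41 and 7.35 with LIF, against 8.11 and 8.31 in J1 cells without LIF and 8.87 and 7.80 with LIF. Both KO arrays without LIF lay below both J1 arrays without LIF, whereas the arrays with LIF overlapped. The difference of -0.54 (SE 0.37, limma adjusted p = 0.985) was the one farthest from 0 in the branch, and it was -0.27 without the first J1 array with LIF. Trib3 encodes a pseudokinase that restrains ATF4 and CHOP. It read 9.39 and 9.18 in KO-labelled cells without LIF and 10.01 and 9.17 with LIF, against 9.92 and 9.24 in J1 cells without LIF and 10.18 and 9.22 with LIF. The 4 second arrays of this gene lay between 9.17 and 9.24 in both lines, and the spread came from the first arrays. Its difference was -0.20 (SE 0.34, limma adjusted p = 0.994) and was 0.04 without the first J1 array with LIF. A second Trib3 probe set had a difference of 0.12. Cebpg, a partner of ATF4 in DNA binding, read 9.34 and 9.54 in KO-labelled cells without LIF and 9.43 and 9.25 with LIF, against 9.50 and 9.73 in J1 cells without LIF and 9.56 and 9.61 with LIF. One KO array, at 9.54, reached into the J1 range (difference -0.21, SE 0.16, limma adjusted p = 0.985). The differences of Cebpb and Atf3, transcription factors induced by stress, were -0.15 and -0.28 with SEs of 0.66 and 0.48. For Atf5 and Nupr1, which encode a transcription factor and a small chromatin protein induced by stress, the differences were 0.03 and -0.22 with SEs of 0.17 and 0.42.

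Asns, whose enzyme makes asparagine and whose promoter holds the element shown above, was the 1 member whose lines did not overlap. It read 13.17 and 13.27 in KO-labelled cells without LIF and 13.29 and 13.23 with LIF, against 13.14 and 13.11 in J1 cells without LIF and 13.13 and 12.85 with LIF. Each KO array lay above each J1 array, but by as little as the gap between 13.17 and 13.14. The difference was 0.18 (SE 0.16, limma adjusted p = 0.988), and it was 0.11 after leaving out the second of the J1 arrays with LIF. Over all genes, 2.32% had 4 KO arrays above 4 J1 arrays and 1.94% had them below. After quantile normalization 0 members were separated. A second Asns probe set had a difference of 0.12.

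The other synthesis enzymes stayed close together. Psat1, Phgdh and Psph, the 3 enzymes of serine synthesis from glycolysis, had differences of -0.08, -0.07 and -0.08 with SEs of 0.18, 0.18 and 0.23. Mthfd2, an enzyme of mitochondrial folate metabolism, read 11.53 and 11.41 in KO-labelled cells without LIF and 11.59 and 11.07 with LIF, against 11.79 and 11.67 in J1 cells without LIF and 11.71 and 11.30 with LIF. Both KO arrays lay below both J1 arrays without LIF, and the arrays with LIF overlapped. The difference was -0.21 (SE 0.20, limma adjusted p = 0.990), and it was -0.08 without the second KO array with LIF. For Shmt2, which feeds serine carbon into the same pathway, the difference was 0.001 (SE 0.19). Of the amino acid carriers, Slc7a5 and its partner Slc3a2 had differences of 0.01 (SE 0.28) and -0.06 (SE 0.17), and the arginine and lysine carrier Slc7a3 of -0.05 (SE 0.22). Chac1, which degrades glutathione, had a difference of -0.38 (SE 0.48), and that of Vldlr, a lipoprotein receptor induced by ATF4, was 0.07 (SE 0.64). Sesn2 and Ddit4, inhibitors of the growth kinase mTORC1, differed by 0.01 (SE 0.16) and -0.16 (SE 0.24).

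In the ER branch, Hspa5, the main ER chaperone (BiP), read 12.76 and 13.13 in KO-labelled cells without LIF and 12.92 and 13.28 with LIF, against 12.96 and 13.12 in J1 cells without LIF and 12.74 and 13.18 with LIF. The lines overlapped throughout (difference 0.02, SE 0.21, limma adjusted p = 1.00), and it was -0.09 without the first J1 array with LIF. Xbp1, the transcription factor that IRE1 activates by splicing, read 12.30 and 11.70 in KO-labelled cells without LIF and 12.45 and 11.82 with LIF, against 12.42 and 11.95 in J1 cells without LIF and 12.45 and 11.62 with LIF. The lines overlapped (difference -0.04, SE 0.31, limma adjusted p = 1.00). The signal does not tell spliced from unspliced Xbp1.

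Pdia4, a protein disulfide isomerase, had the largest difference of the branch. It read 9.62 and 10.10 in KO-labelled cells without LIF and 9.52 and 10.37 with LIF, against 9.59 and 9.67 in J1 cells without LIF and 9.28 and 9.14 with LIF. The lines overlapped because 2 J1 arrays, at 9.59 and 9.67, reached the lower KO readings. The difference was 0.48 (SE 0.25, limma adjusted p = 0.985), from 0.13 between first arrays and 0.83 between second arrays, and it was 0.27 without the second KO array with LIF. With LIF alone it was 0.73 (limma adjusted p = 1.00). Dnajb9, a cochaperone of BiP, read 10.61 and 10.27 in KO-labelled cells without LIF and 10.38 and 10.32 with LIF, against 10.21 and 10.17 in J1 cells without LIF and 10.31 and 9.76 with LIF. The J1 array at 10.31 reached into the KO range (difference 0.28, SE 0.20, limma adjusted p = 0.985), and after leaving out the second of the J1 arrays with LIF the value was 0.14. Herpud1, a part of the ER degradation machinery, read 10.21 and 9.61 in KO-labelled cells without LIF and 10.13 and 8.89 with LIF, against 10.10 and 10.01 in J1 cells without LIF and 10.15 and 9.56 with LIF. The second KO array with LIF was the lowest, and without it the difference of -0.25 (SE 0.35, limma adjusted p = 0.994) was 0.07. Sdf2l1, which works with BiP on unfolded proteins, read 9.29 and 9.51 in KO-labelled cells without LIF and 9.23 and 9.38 with LIF, against 9.28 and 9.37 in J1 cells without LIF and 9.20 and 8.77 with LIF. Only the J1 array at 8.77 stood apart from the other 7 (difference 0.20, SE 0.18, limma adjusted p = 0.990), and without it the value was 0.09. The other 8 ER members, among them the chaperones Hsp90b1, Calr, Hyou1 and Dnajc3 and the disulfide isomerases Pdia3 and Pdia6, had differences between -0.07 (Pdia6) and 0.07 (Creld2).

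The 95% interval of the averaged line difference lay within a 2-fold change in either direction for 26 of 36 members, 14 of 22 in the ATF4 branch and 12 of 14 in the ER branch. It lay within 1.5-fold for 15 of 36. The intervals of this and the LIF comparison come from a fit without array order, so the gap between first and second arrays adds to their width. Cebpb, with an SE of 0.66, had a mean gap of -1.50 between second and first arrays. At an unadjusted p under 0.05, 0 of 36 members were counted, against 4.63% of all genes. Within each LIF condition the count was again 0 of 36, against 2.87% of genes without LIF and 4.19% with LIF, and 0% passed the adjusted threshold in either. The ATF4 median was -0.15 without LIF and -0.14 with LIF, with 17 of 22 members nominally lower in each, and the value with LIF was 0.17 without the second KO array. The ER median was 0.06 without LIF and 0.05 with LIF. The largest differences were -0.63 for Ddit3 without LIF and 1.05 for Slc7a11 with LIF. In cell populations of this kind, fewer cells of a type and less RNA per cell cannot be told apart.

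**Figure D2:**
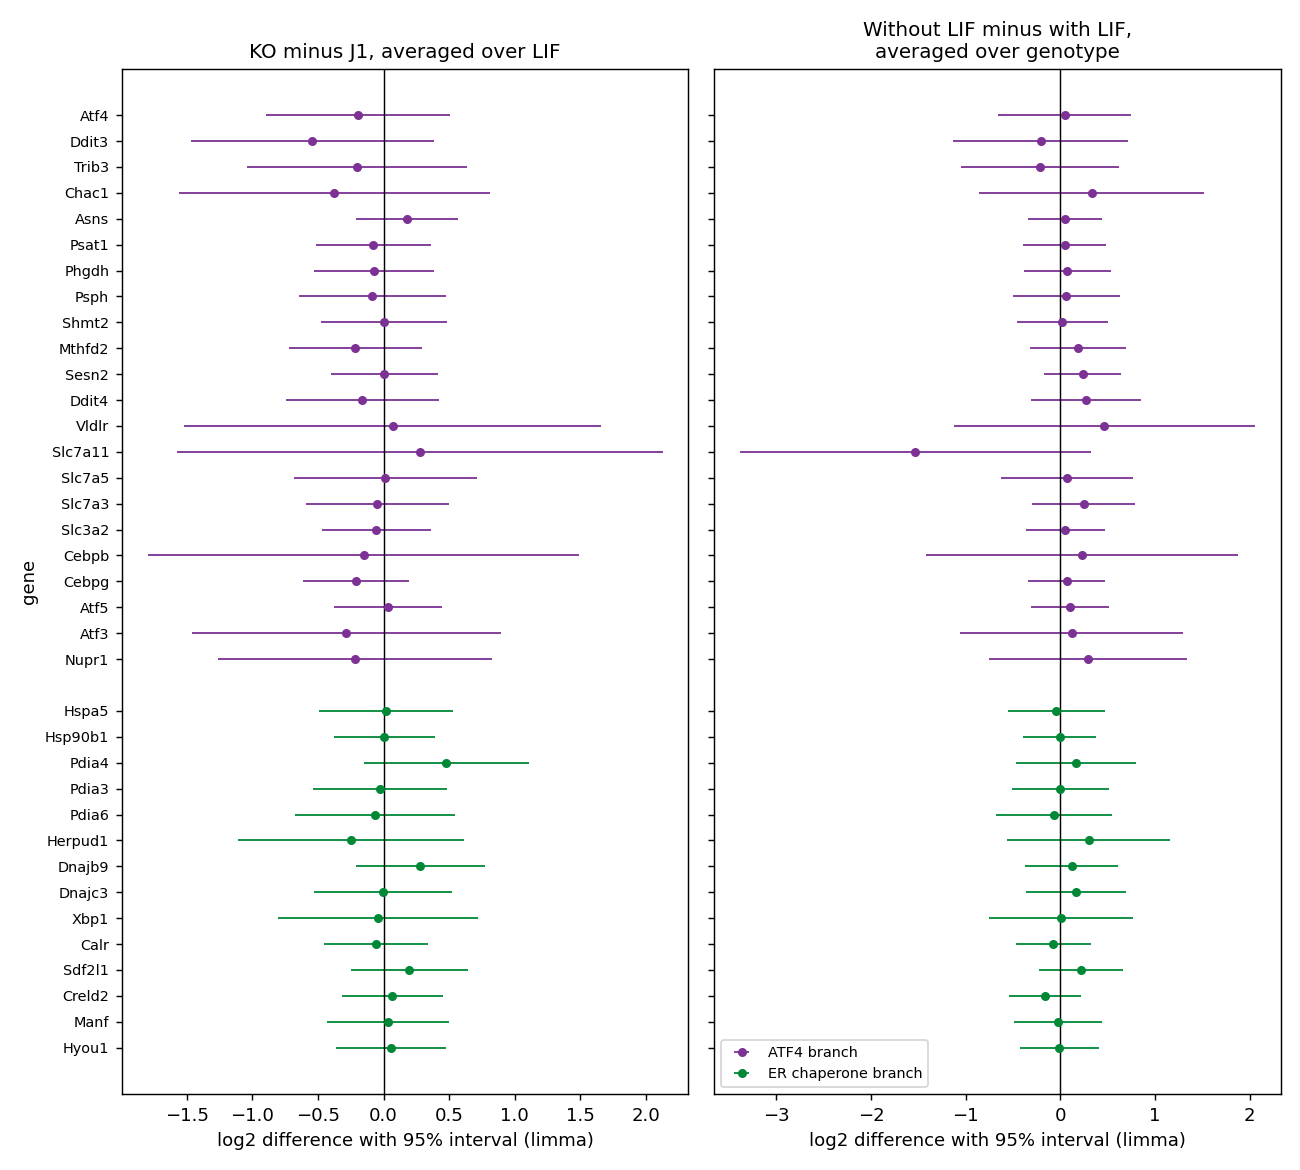
Log2 difference of each member with its 95% interval, genes as rows, KO-labelled minus J1 averaged over LIF on the left and without LIF minus with LIF averaged over line on the right, coloured by branch. Each of the 36 intervals spans 0 in both panels, and the widest belong to Slc7a11, Cebpb and Vldlr.

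Withdrawal of LIF left both branches without a called member as well. The count at an adjusted p under 0.05 was 0 of 36 members and 0% of probe sets, with the lowest limma adjusted p among members at 1.00. In the ATF4 branch 19 of 22 members were nominally higher without LIF, with a median difference of 0.07 on the log2 scale, which was -0.05 without the second KO array with LIF. In the ER branch 6 of 14 were nominally higher, with a median of -0.004. The median of all genes kept was -0.01, with 8738 nominally higher and 9094 lower. At an unadjusted p under 0.05 the count was 0 of 36 against 3.22% of all genes, and no member had 4 arrays without LIF apart from 4 with LIF, against 1% of genes above and 1.4% below. The comparison asks what 12 hours without LIF do to the cells, averaged over the 2 lines. The 95% intervals lay within a 2-fold change for 27 of 36 members and within 1.5-fold for 14.

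Slc7a11, the cystine carrier that supplies glutathione synthesis, had the largest difference of any member. It read 5.26 and 3.57 in KO-labelled cells without LIF, against 6.19 and 7.25 with LIF, and 6.29 and 3.53 in J1 cells without LIF, against 6.05 and 5.29 with LIF. In KO-labelled cells both arrays without LIF were below both with LIF, and in J1 cells they overlapped. The averaged difference was -1.53 (SE 0.75, limma adjusted p = 1.00) and that in KO-labelled cells was -2.31. The 2 lowest readings, 3.57 and 3.53, are under the filter level of 4, where the share of background is unknown, so the size of this difference is uncertain. Without the first J1 array without LIF the averaged difference was -2.22 (limma adjusted p = 0.870), and without the second it was -0.84.

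Among the members that regulate growth, Sesn2 read 10.60 and 10.88 in KO-labelled cells without LIF, against 10.41 and 10.27 with LIF, and 10.61 and 10.53 in J1 cells without LIF, against 10.41 and 10.60 with LIF. The conditions were apart in KO-labelled cells and overlapped in J1 cells (difference 0.24, SE 0.16, limma adjusted p = 1.00). Ddit4 read 10.06 and 10.16 in KO-labelled cells without LIF, against 10.13 and 9.50 with LIF, and 10.16 and 10.34 in J1 cells without LIF, against 10.29 and 9.70 with LIF. The 2 second arrays with LIF were the low ones (difference 0.27, SE 0.24, limma adjusted p = 1.00), and without that of the KO-labelled cells the value was 0.12. Slc7a3 read 12.52 and 12.83 in KO-labelled cells without LIF, against 12.47 and 12.56 with LIF, and 12.54 and 13.08 in J1 cells without LIF, against 12.23 and 12.71 with LIF. The conditions overlapped across the lines, with a difference of 0.25 (SE 0.22, limma adjusted p = 1.00) that was 0.11 without the second J1 array without LIF.

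The regulators Atf4, Ddit3 and Trib3, with the readings given above, had LIF differences of 0.04 (SE 0.28), -0.21 (SE 0.37) and -0.21 (SE 0.34). Without the second KO array with LIF the Atf4 value was -0.20, without the first J1 array with LIF the Ddit3 value was 0.06, and without that same J1 array the Trib3 value was 0.03. The signs of the probe sets used therefore rest on single arrays. A second Trib3 probe set, of mean log2 9.45, had a LIF difference of -0.57. Asns differed by 0.05 (SE 0.16), or by -0.02 after leaving out the second of the J1 arrays with LIF. Ddit3, Trib3 and Slc7a11 were the 3 of 22 ATF4-branch members nominally lower without LIF. Vldlr and Chac1 had the highest values of the branch, 0.46 (SE 0.64) and 0.33 (SE 0.48).

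In the ER branch, Hspa5 and Xbp1 differed by -0.04 (SE 0.21) and 0.01 (SE 0.31) without LIF. The sign of both turned when single arrays were left out. Herpud1 had the largest difference, 0.30 (SE 0.35, limma adjusted p = 1.00), which was -0.01 without the second KO array with LIF. Sdf2l1 differed by 0.22 (SE 0.18), or 0.11 after leaving out the second of the J1 arrays with LIF, and Pdia4 by 0.17 (SE 0.25). Dnajc3, a cochaperone that also inhibits PERK, read 9.65 and 9.25 in KO-labelled cells without LIF, against 9.46 and 8.95 with LIF, and 9.35 and 9.42 in J1 cells without LIF, against 9.46 and 9.12 with LIF. These overlapped, with a difference of 0.17 (SE 0.21) that was 0.04 without the second KO array with LIF. Creld2, an ER protein induced by stress, read 10.67 and 10.85 in KO-labelled cells without LIF, against 10.92 and 10.87 with LIF, and 10.76 and 10.57 in J1 cells without LIF, against 10.84 and 10.86 with LIF. The KO array without LIF at 10.85 reached the J1 range with LIF (difference -0.16, SE 0.15, limma adjusted p = 1.00).

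Taken by line, the ATF4 median was 0.14 in KO-labelled cells and 0.09 in J1 cells, with 16 of 22 members nominally higher without LIF in each. Without the second array with LIF of the line, these medians were -0.18 in KO-labelled cells and -0.16 in J1 cells. The ER median was -0.01 in KO-labelled cells and 0.08 in J1 cells. No member passed an adjusted p under 0.05 in either line or in the difference between the lines, where the background was 0% each time. At an unadjusted p under 0.05 the count was 0 of 36 in each, against 3.36% of genes in KO-labelled cells, 2.75% in J1 cells and 2.69% for the difference between the lines. The median of that difference was -0.04 for the ATF4 branch and -0.01 for the ER branch. Its largest member was Slc7a11 at -1.56, and the lowest unadjusted p of any member was 0.340 in the limma fit.

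Many of these genes read differently on the first and the second arrays of a group. In the ATF4 branch 11 of 22 members (50%) were lower on the second array in all 4 groups and 1, Slc7a3, was higher in all 4, and the median difference was -0.29. Such counts depend on the probe set. Phgdh is among the 11, but another of its probe sets, of mean log2 11.92, was higher in all 4 groups, by 0.09 to 0.66. The remaining Phgdh probe sets had mixed signs. Over all genes 13.7% were lower and 16.5% higher in all 4 groups. Among the 8365 genes with a mean log2 of at least 8, which is closer to the level of these members, the shares were 22.2% and 19.6%. In the ER branch 5 of 14 members (35.7%) were higher on the second array in all 4 groups, namely Hspa5, Pdia3, Pdia6, Manf and Calr, and 3, Xbp1, Herpud1 and Dnajb9, were lower in all 4. The median of that branch was 0.07, and that of all genes was 0.04. This comparison was chosen after the values were seen.

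**Figure D3:**
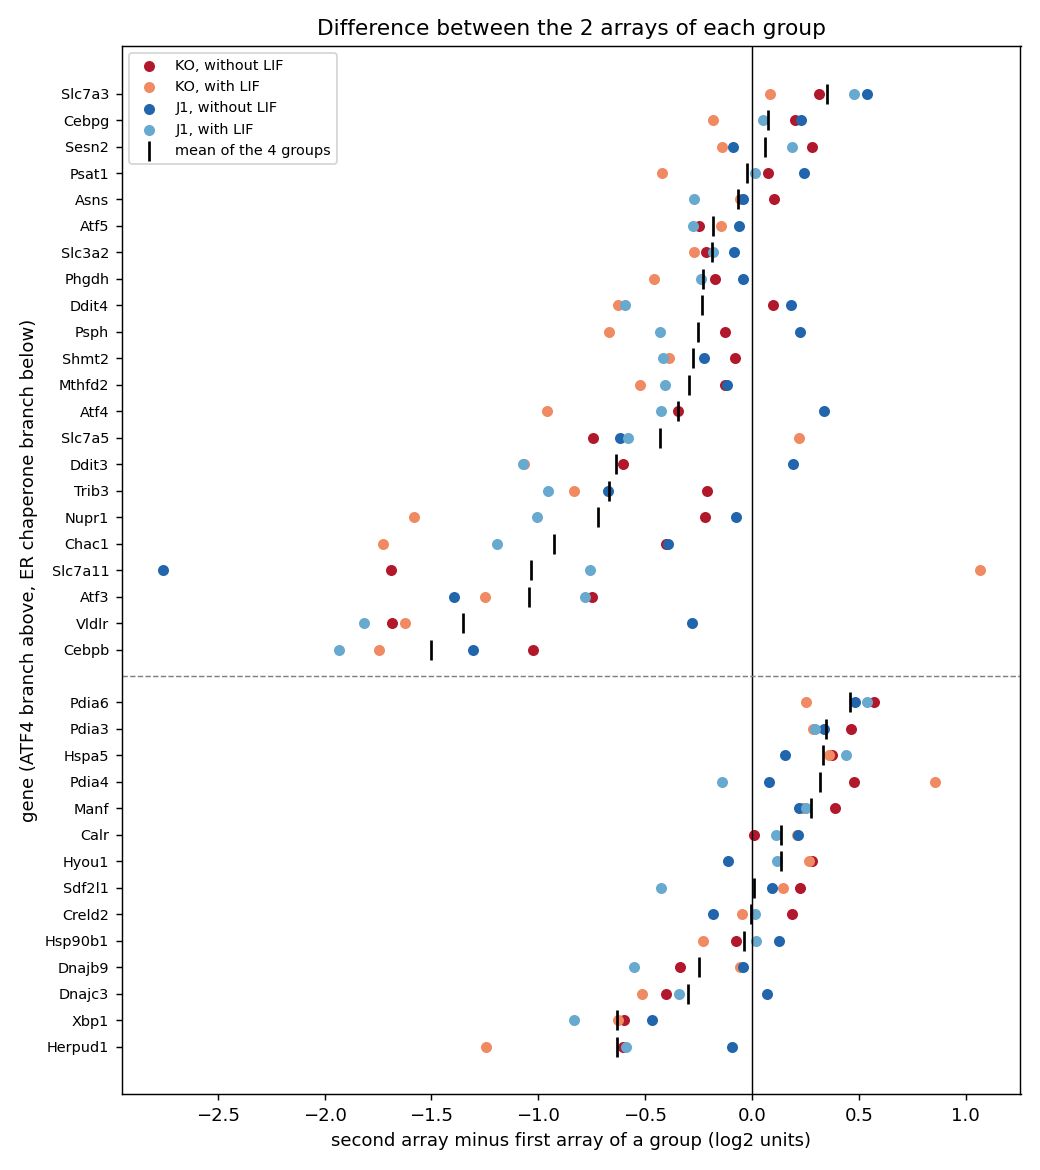
Second minus first array in each of the 4 groups for every member, on the log2 scale, genes as rows and 1 point per group. Cebpb, Atf3 and Vldlr lie below 0 in all 4 groups, whereas Hspa5, Pdia3, Pdia6, Manf and Calr lie above 0 in all 4.

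Cebpb showed the widest gap. Its second arrays read 8.34, 7.75, 8.35 and 7.81 in KO-labelled cells without and with LIF and J1 cells without and with LIF, against 9.37, 9.50, 9.66 and 9.74 on the first arrays. The 4 second arrays all lay below the 4 first arrays, with a mean difference of -1.50 (SE 0.21, limma adjusted p = 0.294), and the other Cebpb probe set gave -1.73. Atf3 read 7.31, 6.82, 7.15 and 7.46 on the second arrays, in the same order of groups, against 8.06, 8.07, 8.55 and 8.24 on the first. Again the second arrays lay below the first without overlap (difference -1.04, SE 0.18, limma adjusted p = 0.294). Vldlr, Chac1 and Trib3 had mean differences of -1.35, -0.93 and -0.67. Chac1 ran from -1.73 to -0.39 over the groups, and Trib3 from -0.96 to -0.21. Atf4 was lower on the second array in 3 of 4 groups and higher by 0.34 in J1 cells without LIF. The group that differed depended on the probe set. Another Atf4 probe set, of mean log2 12.45, was higher by 0.17 in KO-labelled cells without LIF and had -0.09 in J1 cells without LIF.

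Of the 14 ER members, 5 were higher on the second array in all 4 groups, whereas the cochaperone Dnajb9 was lower in all 4 and Dnajc3, Hsp90b1 and Hyou1 had mixed signs. The other Hsp90b1 probe set, of mean log2 12.48, was higher on the second array in all 4 groups, by 0.49 to 0.57. Hspa5 was higher on the second array by 0.37 and 0.36 in KO-labelled cells without and with LIF, and by 0.16 and 0.44 in J1 cells. Pdia6 was higher by 0.57 and 0.25 in KO-labelled cells and by 0.48 and 0.54 in J1 cells (mean 0.46, SE 0.13, limma adjusted p = 0.299). Pdia3 was higher by 0.29 to 0.46 and Manf, a secreted ER protein, by 0.22 to 0.39. Xbp1 had a mean difference of -0.63 (SE 0.13, limma adjusted p = 0.294), with 2 of its 3 other probe sets at -0.66 and -0.56 and the last at 0.17.

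With array order in the fit, 9 of 36 members (25.0%) had an unadjusted p under 0.05, against 13.9% of all genes, and 0 passed the adjusted threshold, as did 0% of probe sets. The 9 were Cebpb, Atf3, Vldlr, Trib3 and Chac1 of the ATF4 branch and Xbp1, Pdia6, Pdia3 and Herpud1 of the ER branch. Other measures moved with array order. The log2 ratio of the 3′ to the 5′ control probe set of Gapdh was lower on the second array in all 4 groups, at -0.40 against -0.31 and -0.46 against -0.30 in KO-labelled cells without and with LIF, and -0.39 against -0.32 and -0.41 against -0.35 in J1 cells. That of Actb was not: it was higher on the second array in 3 of 4 groups, at 0.26 against 0.25 and 0.32 against 0.27 in KO-labelled cells without and with LIF and 0.35 against 0.24 in J1 cells with LIF, and read 0.261 against 0.264 in J1 cells without LIF. The mean log2 of 12 fibroblast markers, 4 of which had a mean of at least 8 and none a mean under 4, was 6.91 to 7.17 on the second arrays against 7.31 to 8.29 on the first, the highest being the first arrays of J1 cells, at 8.29 without LIF and 8.10 with LIF. Of these 12 markers, 4 were lower on the second array in all 4 groups, against 13.7% of all genes. The mean of 8 extraembryonic endoderm markers was higher on the second array in all 4 groups, at 6.35 to 6.95 against 5.94 to 6.34, as was that of the 9 stem cell markers, at 12.57 to 12.95 against 12.51 to 12.82. The mean of 6 trophoblast markers was lower in 3 of 4 groups, at 6.15 to 6.85 against 6.78 to 7.42. The part of these measures in the order differences was not tested.

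Comparisons within arrays of 1 order gave ATF4 medians that differed between first and second arrays. Between KO-labelled and J1 cells the ATF4 median was -0.04 on the first arrays and -0.20 on the second, and the ER median was -0.01 and 0.03. Between cells without and with LIF the ATF4 median was -0.09 on the first arrays and 0.22 on the second, so its sign turned, and the ER median was -0.02 and 0.06. Over all genes the medians on first and second arrays were -0.001 and 0.03 by line and 0.005 and -0.01 by LIF. The second KO array with LIF gave the lowest of the 8 readings for 14 of 22 ATF4-branch members and for 3 of 14 ER members. This array also had the highest median intensity, 143.5. The share of all genes with their lowest reading on it was not counted, so these counts have no background beside them. The mean deviation of the ATF4 branch on that array was -0.36, against -0.27 to -0.05 on the other second arrays and 0.12 to 0.30 on the first arrays.

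**Figure D4:**
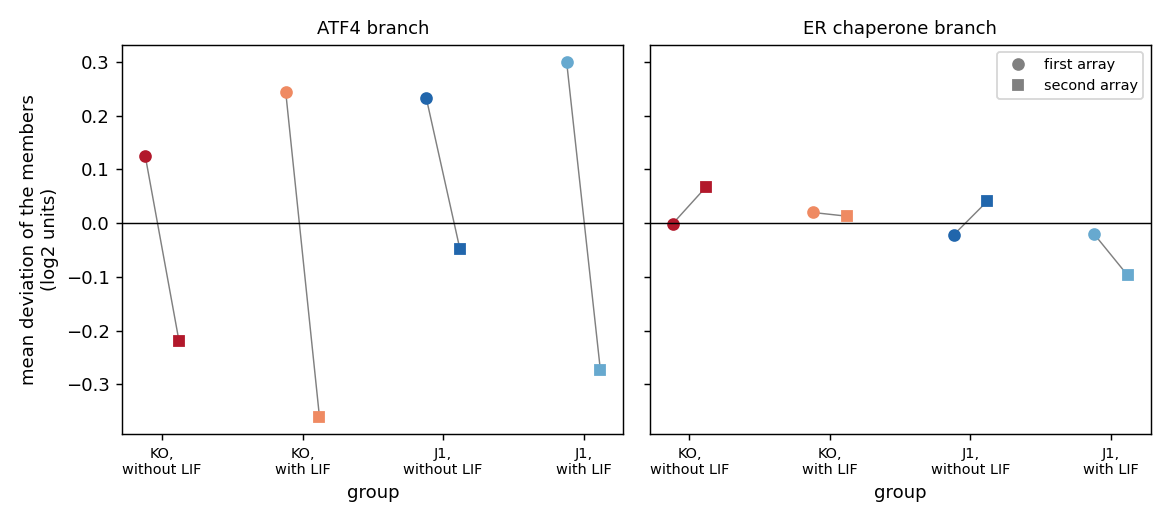
Mean deviation of the members of each branch from their own 8-array means, in log2 units, with the groups on the horizontal axis, circles for first arrays and squares for second arrays. In the ATF4 branch each square lies below its circle, by 0.28 to 0.60, whereas the ER branch stays between -0.10 and 0.07.

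Other genes of the same pathways were counted from lists drawn up by function. None of their members passed an adjusted p under 0.05 in either averaged comparison. Of all 17832 genes kept, 9244 were nominally higher and 8588 lower by line, and 8738 were higher and 9094 lower by LIF. No medians without single arrays are given for these lists. The 7 measured eIF2α kinases and phosphatase subunits, which set the signal upstream of ATF4, had a median line difference of -0.09 (2 nominally higher, 5 lower) and a LIF difference of 0.18 (6 higher, 1 lower). The 19 measured further ATF4 targets had medians of -0.12 (5 higher, 14 lower) and 0.12 (14 higher, 5 lower). The 19 measured aminoacyl-tRNA synthetases, which load amino acids for translation, had medians of -0.01 (5 higher, 14 lower) and 0.02 (12 higher, 7 lower). On the ER side, 8 stress sensors and their processing factors had medians of -0.09 (3 higher, 5 lower) and 0.09 (6 higher, 2 lower), and 28 genes of ER folding and degradation of -0.03 (12 higher, 16 lower) and 0.03 (16 higher, 12 lower). By array order, the further ATF4 targets had a median of -0.31, with 8 of 19 lower on the second array in all 4 groups and 3 higher, and the synthetases had a median of 0.03, with 2 lower and 4 higher. The 8 ER stress sensors had a median of -0.24, with 3 lower and 0 higher, and the 28 genes of ER folding and degradation one of -0.01, with 8 lower and 6 higher. The 7 eIF2α kinases and phosphatase subunits had a median of -0.13, with 1 lower and 2 higher. Over all genes 13.7% were lower and 16.5% higher in all 4 groups. Among genes with a mean log2 of at least 8 these shares were 22.2% and 19.6%.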

How the data were processed

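RNA of mouse embryonic stem cells was hybridised to 8 single-colour arrays. The authors deposited linear intensity values per probe set. Per the submitters' processing notes GCRMA was named, with no version or role. Each deposited column has a mean of 500 once 2% of probe sets are trimmed at either end, and no log was taken, which is not the usual form of GCRMA values, so the step that made them is unknown. Of 45101 probe sets, 64 controls were left out. The log2 of each intensity was used with no pseudocount, and probe sets with at least 4 on at least 2 arrays were kept (43439). limma 3.58.1 in R 4.3.3 was fitted over all 8 arrays with 1 mean per group and eBayes without trend. Benjamini-Hochberg adjusted p under 0.05 was the threshold in each of 7 contrasts, over all probe sets kept. Given in full were Atf4, Ddit3, Trib3, Asns, Hspa5, Xbp1 and, per branch and averaged contrast, the 4 members of smallest unadjusted p, plus the member of largest difference. For array order, members were picked from their values. The members and lists were chosen with earlier results of these data known. The fit was tested on simulated data. Array order, its share among brighter genes and the medians within first and second arrays were alternatives chosen after seeing the data. Of the 36 members, 24 have more than 1 probe set (78 in all), and for 5 the probe set used has the _x_at suffix, which marks probes that may match other transcripts. Gene identity came from the platform annotation, and promoter sequences and start sites from RefSeq tables of assembly GRCm38.p6. Figures were drawn with matplotlib 3.10.9. Alternatives covered the low-value filter, a pseudocount, quantile normalization, the variance prior, the groups fitted, the averaging of probe sets, the threshold, a replicate block and the loss of any single array. The second-minus-first differences of pairs of groups correlated at 0.0496 to 0.198 over all probe sets, with 2 of 6 correlations under 0.1. Over the 36 members alone they were 0.0586 to 0.802, with 1 of 6 under 0.1. By neither measure did all pairs exceed 0.1, so array order was not taken as pairing. The SEs and intervals of the line and LIF differences therefore include the gap between first and second arrays.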

Additional observations from a re-analysis of the deposited data

How the results depend on the processing

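No member passed an adjusted p under 0.05 in the 7 contrasts under the alternatives run. The number of called probe sets was 0 under the alternatives listed, except 1 unnamed probe set, which is no member, for KO minus J1 averaged over LIF with a trended and robust variance prior. The ATF4 medians moved by less than the replicate spread of that branch, 0.33, which includes the gap between first and second arrays. Their sign turned when single arrays were left out (-0.25 to 0.035 for KO minus J1 and -0.050 to 0.21 for without minus with LIF, both averaged, the turned values being those without the second KO array with LIF). The ER branch had a replicate spread of 0.04. Counted over the 7 contrasts and the alternatives, its medians moved past that spread 23 times and stayed within it 86 times. With the replicate block, the ATF4 median was again -0.08 for KO minus J1 and 0.07 for without minus with LIF. This was fixed in advance and is no check, because each group has 1 first and 1 second array and the block cannot change a difference. With the block, the number of members at an unadjusted p under 0.05 was 0. That number was 1 for KO minus J1 averaged over LIF with the trended and robust prior, 1 with LIF alone with that prior or with genes of mean log2 of at least 8 (Pdia4 each time), and 1 for LIF in KO-labelled cells with that prior, the mean filter (Sesn2), log2(intensity + 16) (Slc7a11) or the compared groups only. Members with separated lines numbered 0 after quantile normalization. When a gene's probe sets were averaged, the sign turned for Atf4 (0.31 for line, -0.068 for LIF), Ddit3 (0.13 for LIF), Hspa5 (0.026 for LIF, and 0.0088 with quantile normalization) and Xbp1 (0.022 for line, -0.044 for LIF), and the ER median for LIF in J1 cells was 0.010. One of the 3 Atf4 probe sets, of mean log2 4.94, moves that average.

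Leaving out each array in turn, the ER medians ran from -0.021 to 0.10 for KO minus J1 averaged over LIF, -0.044 to 0.089 with LIF, -0.0078 to 0.11 without LIF, -0.060 to 0.064 for without minus with LIF averaged over line, -0.085 to 0.074 in KO-labelled cells, -0.065 to 0.13 in J1 cells and -0.069 to 0.051 for the difference between lines. The line differences ran from -0.43 to 0.046 for Atf4, -0.44 to 0.036 for Trib3, -0.56 to 0.065 for Herpud1, -0.089 to 0.13 for Hspa5 and -0.25 to 0.16 for Xbp1. The LIF differences ran from -0.20 to 0.29 for Atf4, -0.48 to 0.059 for Ddit3, -0.45 to 0.026 for Trib3, -0.023 to 0.11 for Asns, -0.011 to 0.61 for Herpud1, -0.15 to 0.068 for Hspa5 and -0.20 to 0.22 for Xbp1. Members at an unadjusted p under 0.05 numbered 0 to 1 for KO minus J1 averaged over LIF and with LIF, and 0 to 1 for LIF averaged and in KO-labelled cells. Members with separated groups numbered 1 to 3 by line and 0 to 2 by LIF. The cause of these shifts was not tested. Arrays without a detection value set no lower limit to a reliable reading.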

Other observations

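Cytosolic heat shock genes, whose products fold proteins outside the ER, were measured for 10 of 12 listed genes, and none passed an adjusted p under 0.05. Their median was 0.04 for KO minus J1 and -0.11 for without minus with LIF, where 9 of 10 were nominally lower, against 9094 of all 17832 genes kept. Hspa1a, an inducible HSP70, read 7.50 and 7.61 in KO-labelled cells without LIF and 7.43 and 7.58 with LIF, against 6.81 and 6.76 in J1 cells without LIF and 7.47 and 7.40 with LIF. The low readings were those of J1 cells without LIF, and the line difference was 0.42 (limma, unadjusted p = 0.0336, not past the adjusted threshold). By line, 4.63% of all genes had an unadjusted p under 0.05. The near-identical copy Hspa1b can share its probes. Hspa4l read 7.51 and 8.02 in KO-labelled cells without LIF, against 6.83 and 7.12 with LIF, and 7.56 and 7.84 in J1 cells without LIF, against 7.37 and 7.49 with LIF. Each array without LIF lay above each with LIF in both lines, but by as little as the gap between 7.51 and 7.49. Over all genes 1% were separated in this direction. The difference was 0.53 (limma, unadjusted p = 0.0406, not past the adjusted threshold). By LIF, 3.22% of all genes had an unadjusted p under 0.05. Hspa1a and Hspa4l were picked for the smallest unadjusted p of the list. On the second array 6 of the 10 genes were higher in all 4 groups and 1 was lower, against 16.5% and 13.7% of all genes. Among genes with a mean log2 of at least 8 these shares were 19.6% and 22.2%. The 8 measured NRF2 targets, genes of the oxidative stress response, had medians of -0.05 for line and 0.002 for LIF, with none past either threshold.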
